A study of Mus musculus with 12 samples.

Results

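Bile salts are made in hepatocytes, secreted across the canalicular membrane into bile, absorbed in the intestine and taken up again from portal blood across the sinusoidal membrane. Separate proteins serve each step. The sodium-dependent cotransporter and the organic anion transporting polypeptides take up bile salts, hormones and drugs at the sinusoidal side. ATP-driven pumps of the ABC family move bile salts, phospholipid and conjugated organic anions into bile, or return them to the blood. The genes described here are 10 of these transporters, chosen by name: Slc10a1, Slco1a1, Slco1a4, Slco1b2 and Slco2b1 for uptake, Abcb11, Abcb4 and Abcc2 for canalicular export, and Abcc3 and Abcc4 for efflux back to the blood. All 10 were measured, each by 1 probe set, among 22206 probe sets tested and 19505 gene symbols.

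The samples were livers of male C57BL/6J mice aged 4 to 5 months, with 1 array per mouse: 6 sons of UCP1-KO dams (arrays 7 to 12) and 6 sons of WT dams (arrays 1 to 6). UCP1 is the uncoupling protein through which brown fat makes heat. Every son was heterozygous (HET) by the labels, from a HET sire mated with either kind of dam at 23 °C, and ate a standard chow diet. By that breeding the Ucp1-null allele reached the sons from the mother in the first group and from the father in the second, so the genotype of the dam and the parental origin of the allele cannot be told apart. The comparison asked which liver transcripts differ with the genotype of the mother. Which sons had the same mother is not in the labels, and p-values therefore cover only the spread among these 12 livers. In a whole-liver sample, fewer cells of a type and less RNA per cell cannot be told apart.

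Values are log2 signals, 1 unit being a doubling, and differences are UCP1-KO dam minus WT dam from a limma fit over all 22206 probe sets with Benjamini-Hochberg adjustment, called at an adjusted p under 0.05. That fit called 8 probe sets, 0.0360% of those tested. Negative control probe sets had medians of 5.96 to 6.36 in sons of UCP1-KO dams and 6.14 to 6.62 in sons of WT dams (exact two-sided permutation p = 0.119). UCP1-KO-dam arrays 8, 10 and 11 stood apart on the first principal component of all probe sets, at 37.5, 26.3 and 34.2, where arrays 7, 9 and 12 read -2.45, 1.71 and 0.61 and the WT-dam arrays -24.1 to 1.16. The hepatocyte markers averaged 18.7 to 19.0 over 6 genes on the UCP1-KO-dam arrays and 18.6 to 18.9 on the WT-dam arrays. Of 6 bile duct markers measured, 3 had means below the lowest negative control median, 5.96, in both groups. Of these, the defining markers Krt19 (3.87 to 5.04 in sons of UCP1-KO dams and 4.09 to 4.63 in sons of WT dams) and Epcam (4.43 to 5.15 in sons of UCP1-KO dams and 4.71 to 5.28 in sons of WT dams) lay below it on every array. Among the other 3, Slc10a2 averaged 10.67 in sons of UCP1-KO dams and 10.36 in sons of WT dams, Sox9 averaged 8.98 in sons of UCP1-KO dams and 9.14 in sons of WT dams, and Krt7 averaged 6.50 in sons of UCP1-KO dams and 6.23 in sons of WT dams. None of the 6 had an unadjusted p under 0.05 by limma. Of 6 sinusoidal endothelial markers, Stab2 had a log2 difference of -0.74 and Lyve1 of 0.94 (limma adjusted p = 0.175 and 0.191). Fcgr2b, Pecam1, Clec4g and Stab1 had -0.15, 0.11, -0.09 and 0.03. The part of these markers in the transporter values was not tested.

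None of the 10 transporters passed the test (limma adjusted p = 0.185 to 0.995), against 0.0360% of all probe sets, 0.00450% upward and 0.0315% downward. At an unadjusted p under 0.05 there were 3, 1 with a positive difference and 2 with a negative one, while 13.1% of all probe sets met that threshold, 7.08% upward and 6.00% downward. The groups overlapped for every member, whereas 1.05% of all probe sets had groups that did not. Of the members 5 lay above 0 and 5 below, where 56.8% of all probe sets lay above 0, with a median log2 difference of -0.03 against 0.03 over all probe sets. The uptake genes had log2 differences of 0.66 for Slco1a4, -0.39 for Slc10a1, -0.36 for Slco2b1, -0.35 for Slco1a1 and -0.06 for Slco1b2. The canalicular pumps had 0.00 for Abcb11, 0.06 for Abcc2 and 0.18 for Abcb4, and the efflux pumps had 0.37 for Abcc4 and -0.22 for Abcc3. No test compared these classes.

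**Figure D1:**
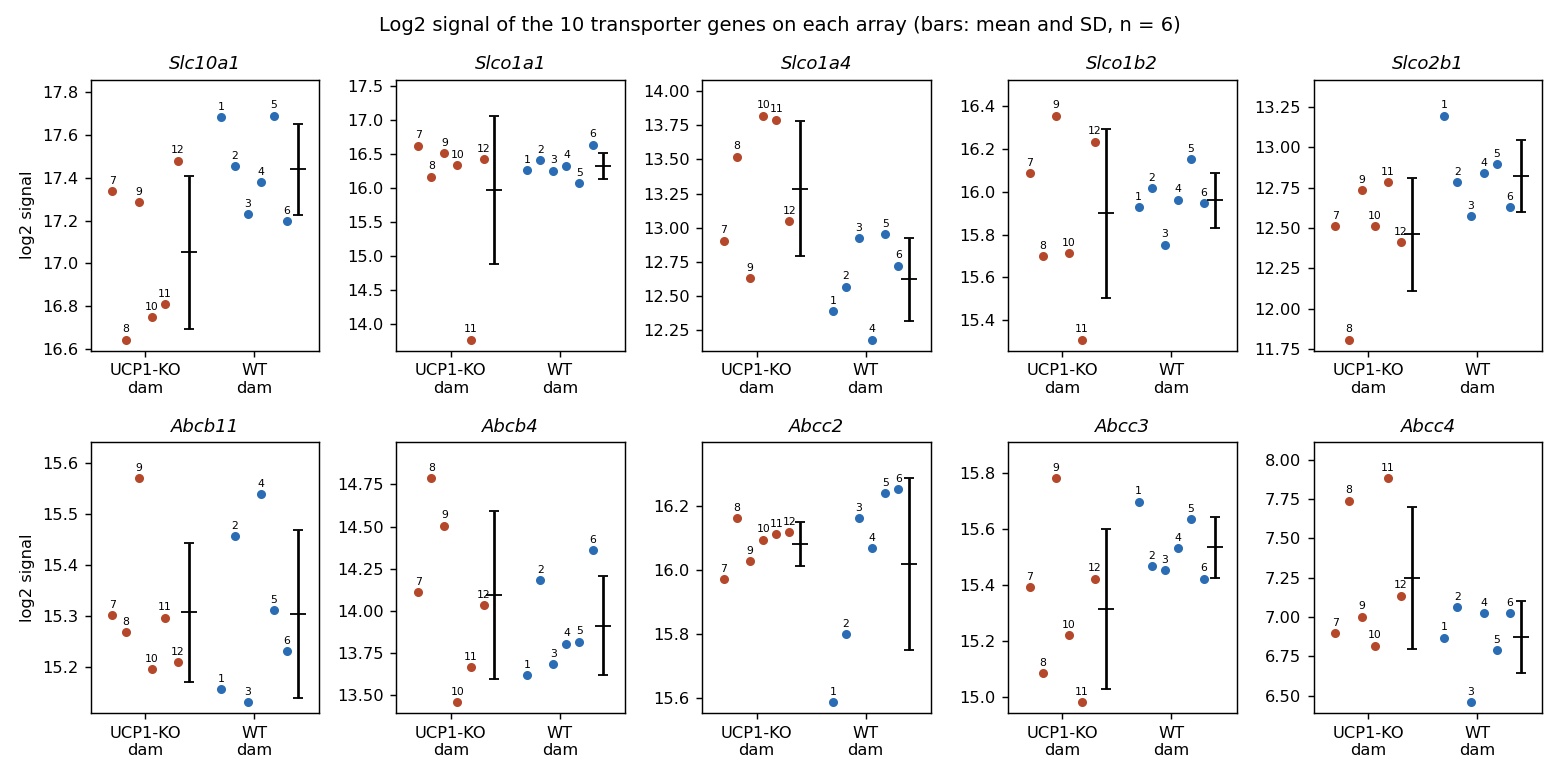
Log2 signal of each transporter gene, with 1 point per array labelled by its number, sons of UCP1-KO dams on the left and sons of WT dams on the right. Bars give the mean and SD of 6 mice, and each panel has its own axis. The groups overlap in every panel, and UCP1-KO-dam arrays 8, 10 and 11 lie together in the panels of Slc10a1, Slco1a4, Slco1b2 and Abcc3.

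Upstream sequence is shown for 5 members. Slco1a4 and Slco1a1 are neighbours with log2 differences of 0.66 and -0.35, the latter 0.09 without UCP1-KO-dam array 11. Slc10a1 and Slco1b2 read below the WT-dam range on UCP1-KO-dam arrays 8, 10 and 11. Abcb11 had the difference nearest to 0. The sequences are the 250 bases before the most upstream annotated start in RefSeq, build GRCm38.p6, 5′ to 3′ on the strand of the gene. RefSeq windows were matched by symbol for 9 of the 10 members. Capitals mark the hexamer AGGTCA, the core of nuclear receptor elements, in either orientation in Slco1a1. They mark TTCNNNGAA, the spaced palindrome bound by STAT factors, in Slc10a1. In Slco1b2 and Abcb11 they mark matches with at most 2 mismatches to the inverted repeat recognised by the bile acid receptor FXR, which is AGGTCA, then any 1 base, then the reverse complement TGACCT. Slco1a4 holds none of these and is shown in lower case.
Slco1a4 (chr6:141856221-141856470, minus strand): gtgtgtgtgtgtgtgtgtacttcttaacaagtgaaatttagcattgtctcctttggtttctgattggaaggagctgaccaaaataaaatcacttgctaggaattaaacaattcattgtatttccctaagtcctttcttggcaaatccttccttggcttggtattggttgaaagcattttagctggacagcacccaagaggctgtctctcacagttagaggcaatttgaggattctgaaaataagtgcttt
Slco1a1 (chr6:141946963-141947212, minus strand): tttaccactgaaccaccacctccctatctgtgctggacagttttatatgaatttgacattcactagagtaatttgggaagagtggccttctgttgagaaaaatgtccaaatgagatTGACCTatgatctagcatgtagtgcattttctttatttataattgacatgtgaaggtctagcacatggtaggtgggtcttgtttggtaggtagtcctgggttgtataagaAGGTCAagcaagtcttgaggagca
Slc10a1 (chr12:80968706-80968955, minus strand): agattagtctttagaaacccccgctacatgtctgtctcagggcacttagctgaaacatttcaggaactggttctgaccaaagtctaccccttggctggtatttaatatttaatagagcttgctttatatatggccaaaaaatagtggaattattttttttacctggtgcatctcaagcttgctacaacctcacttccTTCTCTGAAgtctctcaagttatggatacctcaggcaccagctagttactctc
Slco1b2 (chr6:141629268-141629517, plus strand): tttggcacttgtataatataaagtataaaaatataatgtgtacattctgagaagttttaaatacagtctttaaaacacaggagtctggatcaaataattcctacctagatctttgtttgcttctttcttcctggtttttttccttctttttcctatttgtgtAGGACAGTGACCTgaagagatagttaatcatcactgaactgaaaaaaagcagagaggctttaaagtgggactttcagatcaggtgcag
Abcb11 (chr2:69342617-69342866, minus strand): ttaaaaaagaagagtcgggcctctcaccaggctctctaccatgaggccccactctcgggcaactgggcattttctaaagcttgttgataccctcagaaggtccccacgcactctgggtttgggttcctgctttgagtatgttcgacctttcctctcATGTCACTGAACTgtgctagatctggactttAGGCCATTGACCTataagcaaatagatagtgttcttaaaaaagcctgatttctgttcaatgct

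Among the 9 members with a window, the inverted repeat was matched in Abcb11, at -94 to -82 and at -63 to -51 from the start, and in Slco1b2 at -88 to -76. It was matched in 0.981% of all 27025 upstream windows of that length. The hexamer AGGTCA occurred in Abcb11, Abcc2, Slco1a1 and Slco1b2, and in 13.8% of all windows. In Abcb11 and Slco1b2 it lies inside the inverted repeat. TTCNNNGAA occurred in Slc10a1 and Slco1b2 and in 7.14% of all windows, and the antioxidant response core TGACNNNGC in Abcc2 and Abcc4 and in 10.1%. All were searched on both strands, and a match describes letters, not a bound site.

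Slco1a4 encodes Oatp1a4, a sinusoidal uptake transporter for bile salts, steroid conjugates and cardiac glycosides in rodents. Its log2 signal ranged from 12.63 to 13.82 with a median of 13.28 in sons of UCP1-KO dams, against 12.18 to 12.95 with a median of 12.65 in sons of WT dams. Arrays 8, 10, 11 and 12 of the UCP1-KO dams, at 13.52, 13.82, 13.79 and 13.05, lay above all 6 WT-dam arrays, and arrays 7 and 9 lay within their range. The means were 13.29 ± 0.49 in sons of UCP1-KO dams and 12.62 ± 0.30 in sons of WT dams (SD, n = 6 each), 1.58-fold higher on average (95% interval 1.17 to 2.14), or 0.66 on the log2 scale. It did not pass (limma unadjusted p = 0.00480, adjusted p = 0.185). Without UCP1-KO-dam arrays 8, 10 and 11 the log2 difference was 0.24.

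Slc10a1 encodes Ntcp, the sodium-dependent cotransporter that takes up most conjugated bile salts. It read 16.64 to 17.48 with a median of 17.05 in sons of UCP1-KO dams and 17.20 to 17.69 with a median of 17.42 in sons of WT dams. Arrays 8, 10 and 11, at 16.64, 16.75 and 16.81, lay below every WT-dam array, and arrays 7, 9 and 12 lay inside the WT-dam range. The means were 17.05 ± 0.36 in sons of UCP1-KO dams and 17.44 ± 0.21 in sons of WT dams (SD, n = 6 each). The log2 difference was -0.39 (95% interval -0.73 to -0.04, limma unadjusted p = 0.0298, adjusted p = 0.320), and -0.07 without those 3 arrays.

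Slco1b2, which encodes Oatp1b2, the mouse counterpart of the human liver OATP1B carriers of bilirubin, unconjugated bile acids and statins, had means of 15.90 in sons of UCP1-KO dams and 15.96 in sons of WT dams. It ranged from 15.31 to 16.36 with a median of 15.90 in sons of UCP1-KO dams, against 15.75 to 16.15 with a median of 15.96 in sons of WT dams. The UCP1-KO-dam arrays lay on both sides of the WT-dam range, with 3 below it (arrays 8, 10 and 11 at 15.70, 15.71 and 15.31) and 2 above it (arrays 9 and 12 at 16.36 and 16.23). The SD was 0.40 in sons of UCP1-KO dams and 0.13 in sons of WT dams. The groups differed by -0.06 on the log2 scale (95% interval -0.41 to 0.29, limma adjusted p = 0.916), and 0.27 without arrays 8, 10 and 11.

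Slco1a1 encodes Oatp1a1, an uptake carrier that in mouse liver is far more abundant in males and depends on androgen and pulsatile growth hormone. In sons of UCP1-KO dams it read 13.77 on array 11 and 16.17 to 16.62 on the other 5 arrays, with a median of 16.38 over all 6. In sons of WT dams it read 16.07 to 16.63 with a median of 16.30. Array 11 thus lay 2.55 below the WT-dam mean, and the other 11 livers shared a narrow range. With all arrays the log2 difference was -0.35 (95% interval -1.10 to 0.39, limma adjusted p = 0.714), and without array 11 it was 0.09. The SD was 1.09 in sons of UCP1-KO dams and 0.19 in sons of WT dams.

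Slco2b1 encodes Oatp2b1, a carrier of sulfated steroids and many drugs. It read 11.81 to 12.78 with a median of 12.51 in sons of UCP1-KO dams and 12.57 to 13.20 with a median of 12.81 in sons of WT dams. Arrays 7, 8, 10 and 12 of the UCP1-KO dams, at 12.51, 11.81, 12.51 and 12.41, lay below every WT-dam array. The log2 difference was -0.36 (95% interval -0.70 to -0.01, limma unadjusted p = 0.0420, adjusted p = 0.359). The lowest liver was array 8, without which the difference was -0.23. Arrays 8, 10 and 11 did not go together for this gene, since array 11, at 12.78, was the highest of its group.

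**Figure D2:**
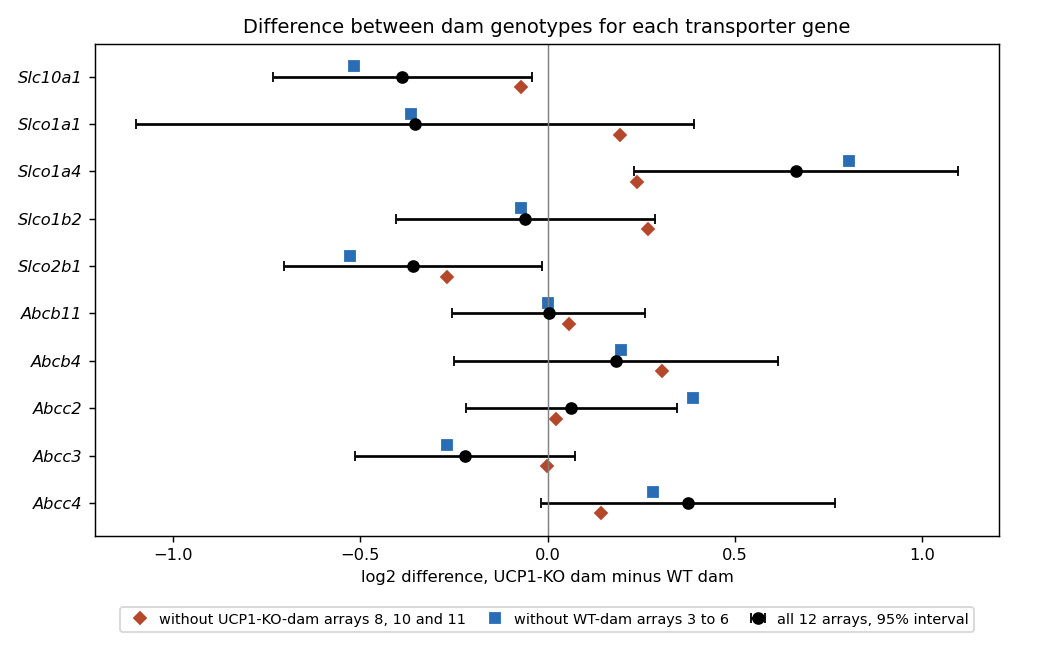
Log2 difference of each transporter gene, UCP1-KO dam minus WT dam, from the limma fit over all arrays (black, with 95% interval), without UCP1-KO-dam arrays 8, 10 and 11 (red) and without WT-dam arrays 3 to 6 (blue). In the WT-dam group the blue points rest on arrays 1 and 2 alone. The black intervals of Slco1a4, Slc10a1 and Slco2b1 leave out 0 before adjustment, and the red points of Slco1a1 and Slco1b2 lie on the other side of 0.

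Abcb11 encodes Bsep, the canalicular bile salt export pump and a direct target of FXR. It read 15.20 to 15.57 with a median of 15.28 in sons of UCP1-KO dams and 15.13 to 15.54 with a median of 15.27 in sons of WT dams. The log2 difference was 0.00 (limma adjusted p = 0.995) and its 95% interval of -0.25 to 0.26 is 0.838-fold to 1.20-fold. Array 9, at 15.57, was the highest of all 12. Arrays 8, 10 and 11, at 15.27, 15.20 and 15.30, lay among the rest.

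Abcc2 encodes Mrp2, the canalicular pump for bilirubin glucuronides and glutathione conjugates. It read 15.97 to 16.16 with a median of 16.10 in sons of UCP1-KO dams and 15.59 to 16.25 with a median of 16.11 in sons of WT dams. Here the WT dams' sons spread more, with an SD of 0.07 in sons of UCP1-KO dams and 0.27 in sons of WT dams. The wider spread came from WT-dam arrays 1 and 2, at 15.59 and 15.80. Their negative controls were the dimmest of the WT-dam arrays, at 6.14 each, against 6.41 to 6.62 on WT-dam arrays 3 to 6. UCP1-KO-dam arrays 9 and 11, with negative control medians of 5.96 and 6.15, read 16.03 and 16.11 for Abcc2. The part of that background signal in the spread was not tested. Between the groups the log2 difference was 0.06 (95% interval -0.22 to 0.34, limma adjusted p = 0.885), and 0.19 with the negative control median as a covariate. Without WT-dam arrays 3 to 6 it was 0.39, which in that group rests on arrays 1 and 2 alone, the lowest for this gene.

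Abcb4 encodes Mdr2, the floppase that supplies phosphatidylcholine to bile. It read 13.46 to 14.79 with a median of 14.07 in sons of UCP1-KO dams and 13.62 to 14.36 with a median of 13.81 in sons of WT dams. In sons of UCP1-KO dams 2 values, 14.79 on array 8 and 14.51 on array 9, were above the WT-dam range and array 10, at 13.46, below it. Its log2 difference was 0.18 (95% interval -0.25 to 0.61, limma adjusted p = 0.751), and 0.04 without array 8.

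Abcc3 encodes Mrp3, which exports glucuronides and bile salts to the blood. It read 14.98 to 15.78 with a median of 15.31 in sons of UCP1-KO dams and 15.42 to 15.70 with a median of 15.50 in sons of WT dams. Of the UCP1-KO-dam arrays 5 lay below the WT-dam range, with arrays 8, 10 and 11 lowest at 15.09, 15.22 and 14.98, while array 9, at 15.78, was the highest of all 12. The log2 difference was -0.22 (95% interval -0.51 to 0.07, limma adjusted p = 0.522). It was 0.00 to 2 decimals, still on the negative side, without arrays 8, 10 and 11, and -0.31 without array 9.

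Abcc4 encodes Mrp4, an efflux pump for bile salts and cyclic nucleotides that is low in normal liver. Its probe set lay close to background, brighter than 47.1% to 82.0% of the negative control probe sets on the same array, whereas the other 9 members exceeded at least 97.9%. It read 6.82 to 7.88 with a median of 7.07 in sons of UCP1-KO dams and 6.46 to 7.06 with a median of 6.95 in sons of WT dams. UCP1-KO-dam arrays 8 and 11, at 7.74 and 7.88, stood above the other 10, and array 10, at 6.82, did not. The log2 difference was 0.37 (95% interval -0.02 to 0.77, limma adjusted p = 0.402), and 0.14 without arrays 8, 10 and 11.

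**Figure D3:**
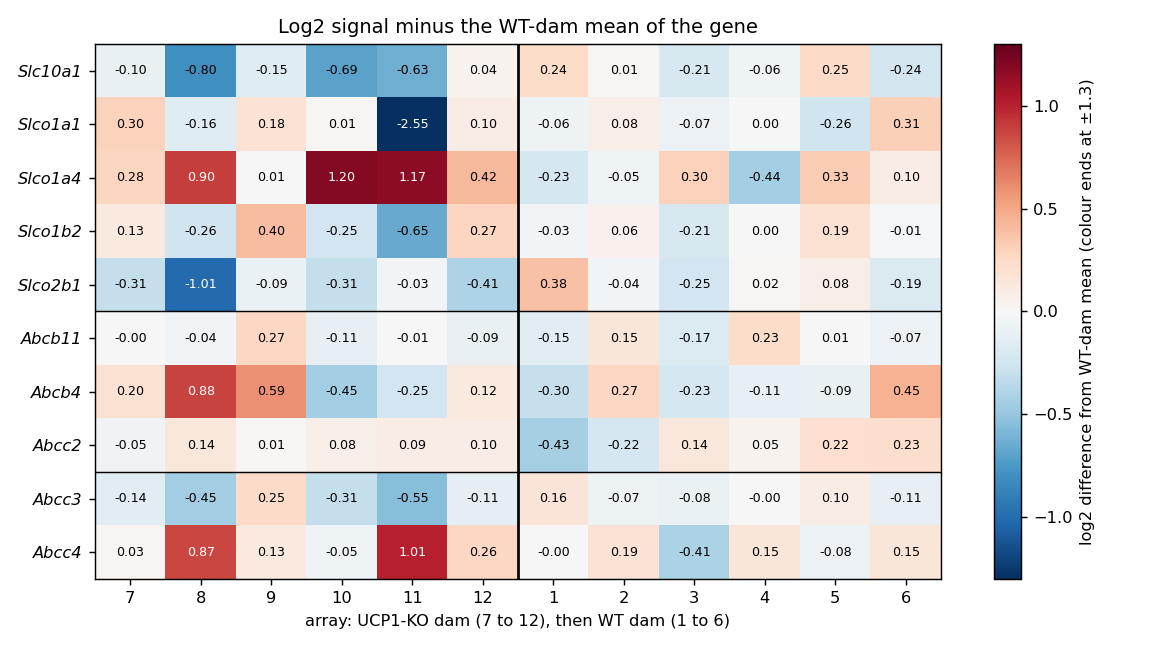
Log2 signal of each transporter gene on each array, minus the mean of the sons of WT dams for that gene, with UCP1-KO-dam arrays on the left. Horizontal lines separate uptake, canalicular export and efflux genes. The largest single value is that of Slco1a1 on array 11, at -2.55, and Slco1a4 reaches 0.90, 1.20 and 1.17 on arrays 8, 10 and 11.

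Arrays 8, 10 and 11 were the 3 lowest of the sons of UCP1-KO dams for 4 members (Slc10a1, Slco1a1, Slco1b2 and Abcc3) and the 3 highest for 1 (Slco1a4). Over all probe sets 14.6% had these arrays at one end of the group. Leaving them out brought the difference below 50% of its size, or turned it, in 7 of the 10 members and in 32.8% of all probe sets. Both observations follow the first principal component and were made on arrays singled out by their values, so they carry no test. The SD was larger in sons of UCP1-KO dams for 8 of the 10 members and for 53.2% of all probe sets. The median SD of the members was 0.38 in sons of UCP1-KO dams and 0.22 in sons of WT dams.

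Variation from mouse to mouse was compared between members. With the group means removed, 45 pairs were correlated over the 12 arrays, with 24 above 0 and 21 below. Of these 0 passed Benjamini-Hochberg adjustment over the pairs, with 8 at an unadjusted permutation p under 0.05 for Pearson's r. The share of such pairs among all probe sets was not determined, so the count is not read as particular to the members. Slco1b2 and Abcc3 had the highest r, 0.87 (permutation p = 0.00503, adjusted p = 0.226), with Spearman's rho of 0.78 (permutation p = 0.0160, adjusted p = 0.315). Without arrays 9 and 11, the farthest from the median of Abcc3, r was 0.71. It was 0.93 within the sons of UCP1-KO dams and 0.40 within the sons of WT dams.

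Slc10a1 and Abcc3 had r = 0.77 (permutation p = 0.0134, adjusted p = 0.227) and rho = 0.83 (permutation p = 0.00907, adjusted p = 0.315), and r = 0.77 without arrays 8 and 12. Within the groups r was 0.75 in sons of UCP1-KO dams and 0.92 in sons of WT dams. Slc10a1 and Slco1b2 had r = 0.78 (permutation p = 0.0258, adjusted p = 0.227) and rho = 0.74 (permutation p = 0.0334, adjusted p = 0.315), and r = 0.74 without arrays 8 and 12. Slco1a4 and Abcc3 had r = -0.75 (permutation p = 0.0156, adjusted p = 0.227) and rho = -0.66 (permutation p = 0.0476, adjusted p = 0.315). Without arrays 9 and 11 that r was -0.52, and it was -0.90 in sons of UCP1-KO dams and -0.21 in sons of WT dams. The difference between the groups in this correlation was not tested.

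**Figure D4:**
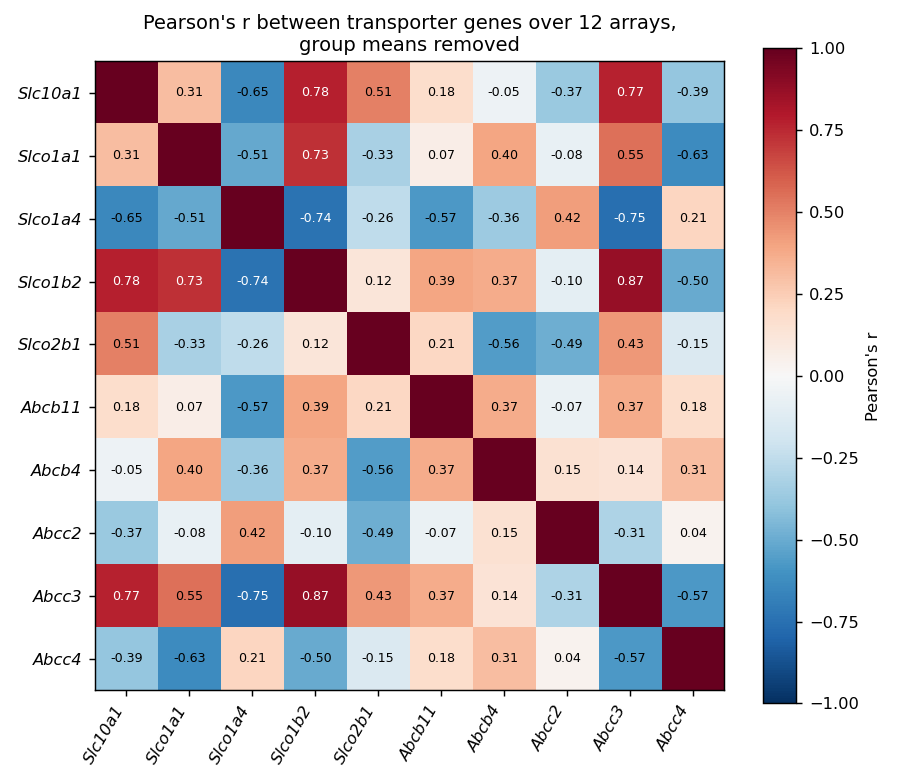
Pearson's r between the transporter genes over 12 arrays after subtracting each group's mean, with red above 0 and blue below. The pairs among Slc10a1, Slco1b2 and Abcc3 lie at 0.77 to 0.87 and those of Slco1a4 with these 3 at -0.65 to -0.75. Within sons of UCP1-KO dams the Slco1a4 pairs lie at -0.84 to -0.92, and within sons of WT dams at -0.21 to 0.02. UCP1-KO-dam arrays 8, 10 and 11 are the 3 highest of their group for Slco1a4 and the 3 lowest for the others. After adjustment 0 of the 45 pairs passed.

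The genes most like each member over the 12 arrays, with group means removed, were looked up among all probe sets with a symbol. Because each was the highest of many, r is a description with no p. For Slco1a1 the nearest was Hsd3b5, a male-specific steroid dehydrogenase of mouse liver, with r = 0.99 and rho = 0.92. Without arrays 7 and 11 its r was 0.92. Next came Tmem87b and Epb41l4b, with r of 0.98 and 0.93, and of 0.87 and 0.65 without those arrays. Hsd3b5 read 9.92 on array 11 and 15.08 to 16.47 on the other UCP1-KO-dam arrays, against 15.73 to 16.61 on the WT-dam arrays. For Slc10a1 the nearest were Gulo, of vitamin C synthesis, Pcsk6, a proprotein convertase, and Cyp2c50, a cytochrome P450, with r of 0.95, 0.95 and 0.94. For Slco1b2 they were Ltbr, a lymphotoxin receptor, Cyp2e1, a pericentral cytochrome P450, and Mgll, monoacylglycerol lipase, with r of 0.94 each. For Abcc3 they were Cyp2d26, Sar1b and Paqr7, with r of 0.95, 0.94 and 0.94. For Slco1a4 they were Mir1199, Tex22 and Misp, with r of 0.95, 0.93 and 0.91. The nearest gene was Olfr1318 for Abcb11 (r = 0.94), Ints8 for Abcb4 (0.96) and Zfp760 for Abcc2 (0.90). It was Gm527 for Abcc4 (0.97) and Pop5 for Slco2b1 (0.95). An r of this height was thus reached for every member.

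Slco1a4 and Slco1a1 lie beside each other on chromosome 6 in the order Slco1c1, Slco1b2, Slco1a4, Slco1a1, Slco1a6 and Slco1a5, with predicted genes between some of them. Of the 8 other Slco family genes measured, 0 passed, with limma adjusted p from 0.157 to 0.987 and 1 at an unadjusted p under 0.05. That gene was Slco1a5, an organic anion carrier, at 6.53 ± 0.21 in sons of UCP1-KO dams and 5.81 ± 0.54 in sons of WT dams (SD, n = 6 each), 0.72 apart on the log2 scale (95% interval 0.29 to 1.15; limma adjusted p = 0.157). In sons of UCP1-KO dams it read 6.29 to 6.76, brighter than 50.4% to 62.8% of the negative controls on the same array. In sons of WT dams it read 5.14 to 6.54, brighter than 21.3% to 59.1% of them. So close to background, the size of its difference is not to be read as a difference in transcript level. The difference was 0.66 without UCP1-KO-dam arrays 8, 10 and 11. Without WT-dam arrays 3 to 6, which leaves arrays 1 and 2 of that group, it was 0.33. The next by p in that list were Slco4a1 with 0.28, Slco3a1 with -0.16 and Slco4c1 with -0.14. Slco1a6 had 0.05 and Slco1c1 -0.04. The means of Slco4a1, Slco4c1, Slco1a6 and Slco1c1 lay below the lowest negative control median in both groups, as for 5 of the 8 genes, so the sizes of their differences are not to be read as differences in transcript level. Genes of the Slco1a group are close paralogues, and whether their probes share signal was not tested.

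**Figure D5:**
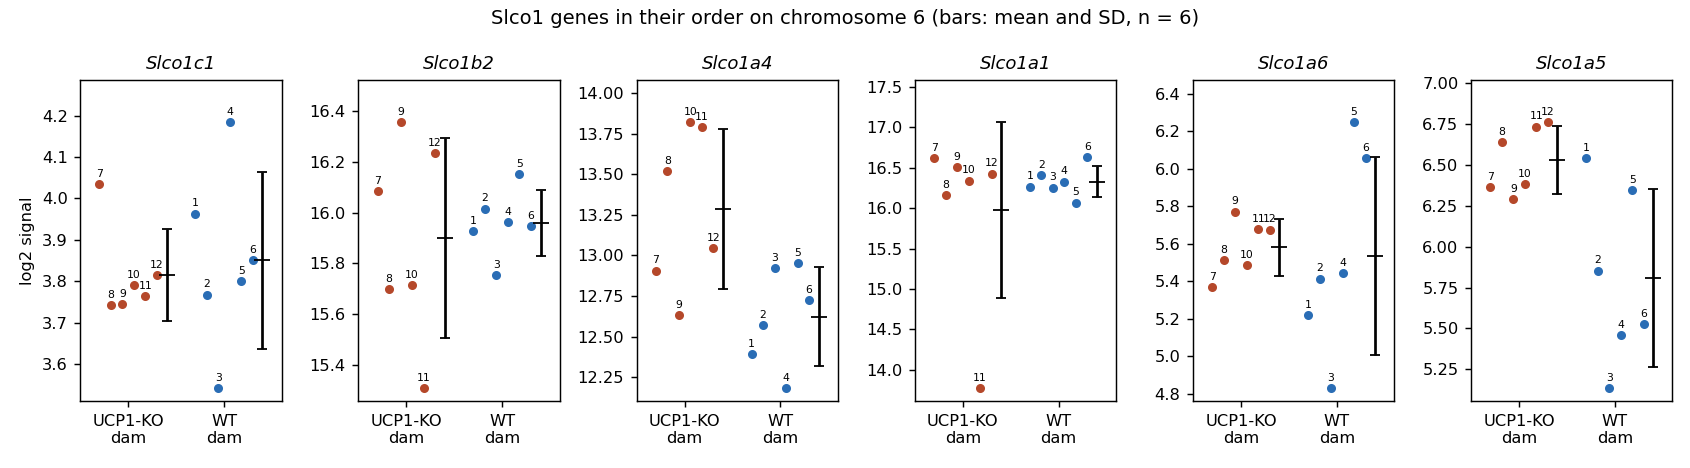
Log2 signal of the measured Slco1 genes in their order along chromosome 6, sons of UCP1-KO dams on the left of each panel, with bars for the mean and SD of 6 mice. Slco1a4 and Slco1a5 lie higher on average in sons of UCP1-KO dams, at 13.29 and 6.53 against 12.62 and 5.81. The values of Slco1a5 are close to the negative controls, and Slco1a1 departs on array 11 alone.

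Of 15 other bile and drug transporter genes measured, 0 passed the limma test, with 2 at an unadjusted p under 0.05 in each direction. Tmem30a, the partner subunit of the canalicular lipid flippase Atp8b1, read 15.46 to 15.77 in sons of UCP1-KO dams and 14.97 to 15.32 in sons of WT dams, without overlap. Its log2 difference was 0.43 (95% interval 0.19 to 0.68, limma adjusted p = 0.135), and 1.05% of all probe sets had groups without overlap. Slc22a7, the sinusoidal organic anion carrier Oat2, had the widest difference of that list at -1.73 (95% interval -2.71 to -0.75, limma adjusted p = 0.137). It read 7.31, 6.01 and 6.85 on UCP1-KO-dam arrays 8, 10 and 11 and 8.45 to 9.86 on arrays 7, 9 and 12, against 9.12 to 10.59 on the WT-dam arrays. Without arrays 8, 10 and 11 it was -0.62. Slc47a1, a proton-coupled cation exporter, had -0.51 and Abcb1a, a P-glycoprotein, 0.53.

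Of the 13 regulators measured 0 passed, with limma adjusted p from 0.268 to 0.882 and 2 at an unadjusted p under 0.05. Nr1i3, the receptor CAR that induces several of these transporters, had -1.07 (95% interval -1.93 to -0.21, limma adjusted p = 0.268). It read 11.38 to 13.83 in sons of UCP1-KO dams, lowest on arrays 8 and 11, against 12.89 to 14.93 in sons of WT dams. It had -0.28 without UCP1-KO-dam arrays 8, 10 and 11. Without WT-dam arrays 3 to 6, which leaves arrays 1 and 2 of that group, it had -0.20. Nfe2l2, the antioxidant regulator NRF2, had -0.48 (limma adjusted p = 0.270), and -0.19 without UCP1-KO-dam arrays 8, 10 and 11. Ahr had -0.53 and Klb, the co-receptor of the intestinal bile acid signal FGF15, 0.36.

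Targets of these receptors outside the member list showed 0 calls in either direction. Of 5 measured FXR targets, Nr0b2, the repressor SHP, had 0.31, Fgb 0.09 and the efflux subunits Slc51b and Slc51a -0.15 and -0.03 (limma adjusted p = 0.712 to 0.973, 0 at an unadjusted p under 0.05). Of 6 CAR and PXR targets, Alas1 had -0.67, Cyp2a5 -0.26, Gstm3 -0.15 and Cyp3a11 0.07 (limma adjusted p = 0.716 to 0.933, 0 at an unadjusted p under 0.05). Without UCP1-KO-dam arrays 8, 10 and 11, Alas1 had 0.31, Cyp2a5 0.19, Gstm3 -0.34 and Cyp3a11 0.08. Of 7 NRF2 targets 1 had an unadjusted p under 0.05: Srxn1, sulfiredoxin, with -0.45 (limma adjusted p = 0.185), while Nqo1 had 0.36, Gclm 0.23 and Slc7a11 0.19. The means of Slc51a and Slc7a11 lay below the lowest negative control median in both groups. Those of Slc51b, 6.19 in sons of UCP1-KO dams and 6.34 in sons of WT dams, lay within the range of the negative control medians. The conjugating and activating genes, 5 measured, had 0 calls and 0 at an unadjusted p under 0.05 by limma, with Sult2a8 at -0.23, the bile acid CoA ligase Slc27a5 at 0.20, Ugt2b5 at 0.25 and Ugt2b1 at -0.15.

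Genes that hold or deliver the pumps at the canalicular membrane numbered 9, of which 0 passed the limma test and 4 had an unadjusted p under 0.05. Rab11a, of the recycling endosome, had 0.45 (limma adjusted p = 0.194) and Rdx, the radixin that anchors Mrp2, 0.35 (limma adjusted p = 0.241). Stx3, an apical syntaxin, had 0.37 at 5.59 and 5.22, below the negative control medians, and Vipas39, a partner of Vps33b in apical sorting, -0.33. Over the 80 genes of these and the sex-biased lists together, 15.0% had an unadjusted p under 0.05, against 13.1% of all probe sets.

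Because Slco1a1 and Slco1a4 are sex-biased in mouse liver, sex-biased genes were read beside them. Of 8 male-biased genes 0 passed the limma test, with 0 at an unadjusted p under 0.05. Of the 8, 3 lay above 0 and 5 below. Their log2 differences by smallest p were Mup20 0.21, Cyp2d9 -0.52, Hsd3b5 -1.29 and Elovl3 -0.59. Without UCP1-KO-dam arrays 8, 10 and 11 these were 0.29, 0.27, 0.14 and -0.21 in the same order. On array 11, Cyp2d9 at 15.72, Elovl3 at 13.71 and Hsd3b5 at 9.92 were each the lowest of the 12 livers, as was Slco1a1. Mup20 was not, at 18.84 on array 11 against 18.69 and 18.79 on WT-dam arrays 3 and 5. Values on array 11 for the other male-biased genes are not given here. Of 7 female-biased genes 0 passed, with 0 at an unadjusted p under 0.05 by limma, at Cyp2b9 -1.66, Cyp3a41a 0.24, Cyp17a1 1.46 and Sult2a1 0.17. Cyp17a1 read 11.32, 11.26 and 15.09 on UCP1-KO-dam arrays 8, 10 and 11 and 7.88 to 8.33 on arrays 7, 9 and 12, against 6.41 to 9.80 on the WT-dam arrays. The part of this pattern in the transporter values was not tested.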

How the data were processed

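Each array gave log2 signals, 1 per probe set, which the authors deposited after processing for which the submitters' processing notes name RMA (robust multi-array averaging) and Transcriptome Analysis Console. Versions, the RMA variant and a genome build are not given in the sources used here. RMA scales arrays to each other and can compress differences of dim probe sets.

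The 6640 control rows were set aside, and the 22206 other probe sets were fitted with limma 3.58.1 in R 4.3.3 (dam genotype as the only term, two-sided, adjusted by Benjamini-Hochberg over all). The platform annotation gave 1 symbol to 19572 of them. With 6 arrays a group, that number sets the precision. Background was read from 5222 negative control rows. Correlations used scipy 1.17.1 and 100000 permutations within groups. The fit was tested on simulated data with independent noise for each probe set. Those data do not carry the pattern of UCP1-KO-dam arrays 8, 10 and 11.

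The members and lists were chosen with earlier results of these data known. All members are named, with the 3 most alike genes for some and the nearest alone for the others. Up to 4 genes of smallest p per pathway list are named, beside Alb, Krt19 and Epcam. A few listed genes were not analysed here. Alternatives were another normalization (2 kinds), filters on dim probe sets, a variance trend, symbol-level tables, the negative control median as a covariate, and leaving out arrays.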

Additional observations from a re-analysis of the deposited data

Results flagged for a closer look

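Single arrays far from the other 5 of their group appeared in 10 of 108 sample groups tested. The measure was the gap to the nearest array over the range of the group, with a cutoff meant for about 5% by chance. The share over all probe sets was not determined, so these counts are not read as an excess. Of the 20 sample groups of the members 2 had such an array. Slco1a1 read 13.77 on UCP1-KO-dam array 11, against 16.17 to 16.62 on the other 5. Abcb11 read 15.57 on UCP1-KO-dam array 9, against 15.20 to 15.30 on the others.

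Among the genes read beside the members, array 11 of the UCP1-KO dams also stood apart for Hsd3b5 at 9.92 (others 15.08 to 16.47), for Gstm3 at 16.46 (others 15.33 to 15.69) and for Slc51a at 5.87 (others 4.93 to 5.25, below the negative control medians). In sons of WT dams Hsd3b5 read 15.73 on array 5 (others 16.33 to 16.61) and Slc27a5 16.85 on array 5 (others 16.54 to 16.64). Cyp3a11 read 18.56 (others 18.77 to 18.90) and Alb 19.24 (others 19.63 to 19.69) on WT-dam array 3, and Cyp17a1 6.41 on WT-dam array 6 (others 8.74 to 9.80).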

How the results depend on the processing

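No member passed in any of the 22 alternatives (lowest limma adjusted p = 0.131, for Slco1a4 without UCP1-KO-dam array 9), where 3 had an unadjusted p under 0.05 in the fit reported. Of 220 member values 209 kept their direction and 11 turned. Abcb11 had -0.027 after median centring and -0.037 with the negative control covariate. Leaving out single arrays gave Abcb11 -0.050 (without UCP1-KO-dam array 9) to 0.050, Abcc2 -0.023 (without WT-dam array 1) to 0.11, Slco1a1 -0.48 to 0.086 (without UCP1-KO-dam array 11) and Slco1b2 -0.15 to 0.058 (also without array 11). Abcb11 also turned without WT-dam arrays 1, 3 and 6, each left out alone. Without UCP1-KO-dam arrays 8, 10 and 11, Slco1a1 had 0.19 and Slco1b2 0.27. The other 6 members turned in none. Of the 43 genes read beside them, 30 kept their sign in all alternatives in which they were measured and 0 were called in any by limma.

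The count of 8 probe sets called was 32 with the dimmer 50% left out, 22 with a variance trend and robust estimation, 2 with the covariate and 12 after quantile normalization. It was 0 without WT-dam arrays 3 to 6, which leaves arrays 1 and 2 of that group (1561 at an unadjusted p under 0.05). It was also 0 without UCP1-KO-dam arrays 8, 10 and 11, which leaves arrays 7, 9 and 12 (1884). In these fits the smaller number of arrays and the particular arrays left out cannot be told apart. Leaving out single arrays gave 1 to 112: of the WT dams, array 2 left out gave 112, array 3 gave 3 and array 6 gave 2, and of the UCP1-KO dams, array 7 gave 54, array 11 gave 5, array 9 gave 4 and array 8 gave 1. Among pairs of members, 4 passed with the group means kept and 0 without the 2 farthest arrays. The cause of these shifts was not tested. No paired analysis was possible because the labels number the mice 1 to 12 and the groups share no number. Of the members, Slco1a1 had the widest 95% interval (-1.10 to 0.39), and Abcc4 alone lay near the negative controls.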
